A study of Mus musculus with 15 samples.

Results

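The 37 genes described here are those of the mouse mitochondrial genome. They were taken as every row of the deposited count table whose Ensembl gene ID is annotated on chrM with a symbol that starts with mt-, which gave 13 mRNAs, 2 rRNAs and 22 tRNAs among 55471 gene rows. Bulk RNA of the whole hippocampus of female mice aged 3 months was sequenced in 15 libraries, 3 in each of 5 groups. WT mice were C57BL/6JInv, and DM mice came from crosses of the single mutants. Batch 1 held DM mice (homozygous for the AppNL-G-F knock-in and heterozygous for human APOE4), APP-TKI mice (homozygous for AppNL-G-F, with mouse Apoe) and WT mice. Batch 2 held ApoE4 mice (heterozygous for human APOE4, with unmutated App) and WT mice of their own. The study asked what APOE4 and mutant App do to the hippocampal transcriptome, alone and together, at this early age, and the tests below stay within a batch except for the difference of the APOE4 effects. Where values of both batches stand side by side, no test was made between them.

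In both knock-ins the gene sits at its mouse locus, and the APOE4 carriers keep 1 mouse Apoe copy. The labels number the libraries within a group without naming the animals, while the study counts its replicates in mice, and p-values measure the spread between libraries. In bulk tissue, fewer cells of a type, fewer mitochondria and less RNA per mitochondrion cannot be told apart.

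The mitochondrial genome is a small circle that is read from both strands into long precursor RNAs. In mammals the tRNAs lie between most of the other genes and mark the points where the precursors are cut, by RNase P at their 5′ ends and by the RNase Z enzyme ELAC2 at their 3′ ends. The mRNAs encode hydrophobic subunits of respiratory complexes I, III and IV and of the ATP synthase, complex V, and all other subunits come from nuclear genes. The rRNAs and tRNAs serve the ribosomes inside the organelle. Most mitochondrial mRNAs receive a poly(A) tail, which is how they enter a poly(A)-selected library of the kind made here.

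In the annotation of GRCm38, 28 of the 37 genes lie on the plus strand. The 9 others, mt-Nd6 and 8 tRNAs, lie on the minus strand. The genes are packed so tightly that some share bases. The start of mt-Atp6 overlaps the end of mt-Atp8 by 43 bases on the same strand (chrM:7927-7969), shown here with the first codon of mt-Atp6 in capitals, and reads inside it belong to both genes.

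mt-Atp8 and mt-Atp6 overlap: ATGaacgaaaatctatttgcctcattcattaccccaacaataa

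At chrM:13552-13565 the ends of mt-Nd5 and mt-Nd6 run into each other from opposite strands over 14 bases. The pair is shown because only the strand of a read tells these genes apart here. The libraries were directional, and the sources used here do not give the strand setting of HTSeq.

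mt-Nd5 end: ttaatctcgagtaa

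mt-Nd6 end: ttactcgagattaa

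Of the 22 tRNA genes, 6 passed the filter for testing (over 1 CPM, the count scaled to the library's total, in at least 3 of the 15 libraries). Their sequences follow, with the anticodon in capitals. The anticodon was found as the middle of a loop of 7 bases between stems of 5. They are mt-Tq for glutamine (chrM:3772-3842, minus), mt-Tw for tryptophan (chrM:4950-5016, plus), mt-Ta for alanine (chrM:5018-5086, minus), mt-Te for glutamate (chrM:14071-14139, minus), mt-Tt for threonine (chrM:15289-15355, plus) and mt-Tp for proline (chrM:15356-15422, minus). mt-Tt and mt-Tp abut end to end on opposite strands, next to the noncoding control region that holds the promoters.

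mt-Tq: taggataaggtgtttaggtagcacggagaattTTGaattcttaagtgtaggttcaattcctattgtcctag

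mt-Tw: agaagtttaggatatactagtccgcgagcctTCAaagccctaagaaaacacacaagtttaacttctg

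mt-Ta: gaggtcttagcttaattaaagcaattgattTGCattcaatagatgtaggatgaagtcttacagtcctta

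mt-Te: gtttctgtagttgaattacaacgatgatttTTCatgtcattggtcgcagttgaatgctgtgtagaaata

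mt-Tt: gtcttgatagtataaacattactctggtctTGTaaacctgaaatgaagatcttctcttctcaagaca

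mt-Tp: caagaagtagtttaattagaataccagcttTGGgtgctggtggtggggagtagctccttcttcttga

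Mature tRNAs carry no poly(A) tail, and the reads of 150 bases at each end are longer than these genes, which span 67 to 71 bases. A tRNA row in this table therefore cannot be read as the pool of mature tRNA.

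Total counts were 32754717 to 44630808 per library. The summed CPM of 5 neuronal markers was 4670 to 5310 in DM, 4840 to 5250 in APP-TKI and 4950 to 5180 in WT libraries of batch 1, and 4710 to 5080 in ApoE4 and 4580 to 5140 in WT libraries of batch 2. All 34 marker genes of 11 neuronal, glial, vascular and neighbouring cell types had counts in at least some libraries, with all 5 neuronal markers at 197 CPM or more in each library. The 3 endothelial markers summed to 18.0 to 23.6 CPM in DM libraries, against 12.1 to 14.2 CPM in APP-TKI and 13.3 to 14.7 CPM in WT libraries of batch 1. The 3 choroid plexus markers reached 1850 CPM in 1 ApoE4 library and 1550 CPM in 1 WT library of batch 2, against at most 94.9 CPM in the 4 others of that batch. Counts of nuclear long noncoding and antisense genes were taken as a share of the total (the noncoding share). They were 2.65% to 2.88% in DM library 1, APP-TKI libraries 1 and 2 and WT library 1 of batch 1. They were 2.16% to 2.32% in the other 5 libraries of that batch and 1.66% to 1.83% in batch 2.

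The genes differed far more from each other than between groups. Levels were set per kilobase of gene, so that mRNAs and rRNAs of unequal length can be compared. The mean over the 15 libraries was highest for mt-Co1, the catalytic core of complex IV, at 11000 ± 605 CPM per kb (SD). mt-Cytb, the only mitochondrial subunit of complex III, followed at 5620 ± 339 CPM per kb, beside mt-Nd1 of complex I at 5300 ± 319 CPM per kb. The levels of mt-Cytb (5000 to 6150 CPM per kb) and mt-Nd1 (4910 to 5920 CPM per kb) overlapped between libraries.

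The next level was held by mt-Nd2 at 3260 ± 247 CPM per kb and by the rRNA of the small ribosomal subunit, mt-Rnr1, at 3230 ± 250 CPM per kb. mt-Rnr2, the large subunit rRNA, stood at 2830 ± 269 CPM per kb, mt-Nd4 at 2290 ± 156 CPM per kb and mt-Nd5 at 2130 ± 130 CPM per kb. Neighbours among these 5 overlapped in range. Parts of mt-Nd4 and mt-Co1 have a near-identical nuclear copy, described below. With all their counts set on the bases outside that copy, they would stand at 6280 and 16000 CPM per kb. The place of mt-Nd4 in this order is therefore uncertain. mt-Nd6, the single mRNA of the minus strand and also a complex I subunit, was far lower at 353 ± 105 CPM per kb.

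The tested tRNA rows lay below mt-Nd6, also in plain CPM (mean of 11.2 for mt-Tp, the highest of them, and 183 for mt-Nd6). Because reads are longer than the tRNA genes, CPM per kb does not put these rows on the scale of the mRNAs. mt-Tp led them at 167 ± 49.6 CPM per kb, before mt-Tw at 95.5 ± 13.9 and mt-Tq at 86.1 ± 23.9 CPM per kb. mt-Tt (29.7 ± 7.06 CPM per kb), mt-Te (24.8 ± 9.45 CPM per kb) and mt-Ta (9.09 ± 6.34 CPM per kb) were lower. Over the 15 libraries mt-Tw (75.6 to 120 CPM per kb) and mt-Tq (55.2 to 131 CPM per kb) overlapped. In batch 2 they did not, with mt-Tw at 5.28 CPM or more and mt-Tq at 4.82 CPM or less on genes of nearly equal length.

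The rows of the 16 other tRNA genes had low counts or 0. mt-Ts1 and mt-Ty for serine and tyrosine averaged 0.551 and 0.296 CPM. mt-Ti, mt-Tm, mt-Tn, mt-Td and mt-Th had at most 5 counts in any library. The remaining 9, mt-Tf, mt-Tv, mt-Tl1, mt-Tc, mt-Tk, mt-Tg, mt-Tr, mt-Ts2 and mt-Tl2, had 0 counts in every library, which allows up to 0.0672 to 0.0916 CPM (3 counts, counting error only).

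**Figure D1:**
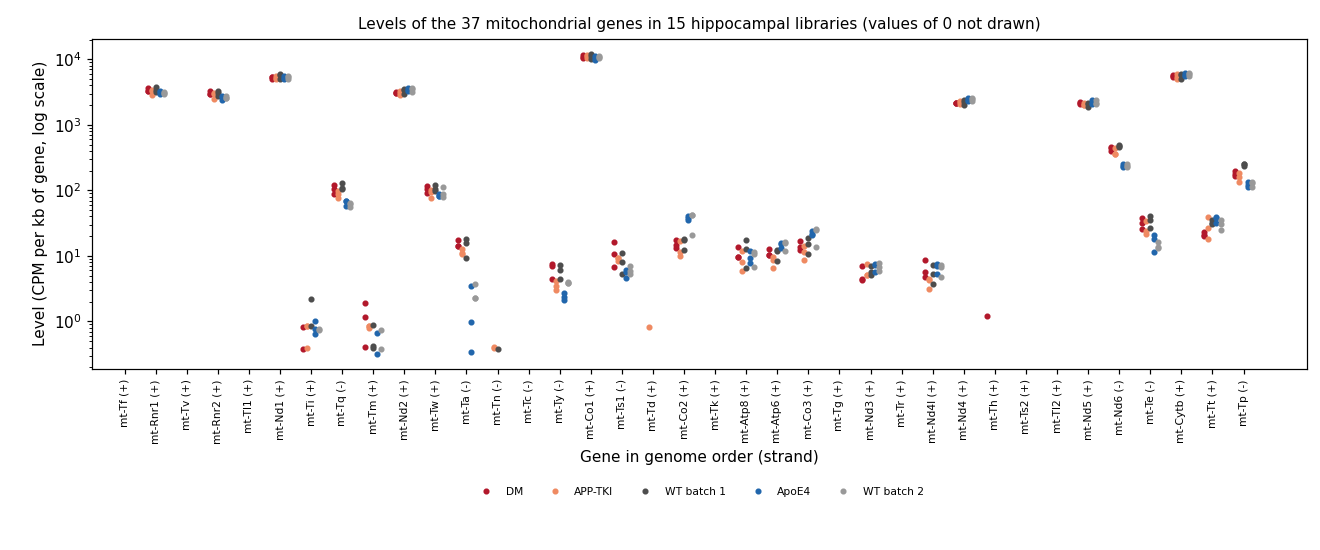
Level of each of the 37 mitochondrial genes in each of 15 libraries, in CPM per kb on a log axis, with genes in genome order, their strand in brackets and colours for the 5 groups (3 points each). mt-Co1 stands highest at a mean of 11000 CPM per kb, 6 plus-strand mRNAs from mt-Co2 to mt-Nd4l lie at means of 5.72 to 23.5 CPM per kb, and the minus-strand mt-Nd6 is lower in both groups of batch 2 than in batch 1.

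A block of 6 mRNAs was listed at levels far under those of their neighbours. mt-Co2 and mt-Co3 of complex IV stood at 23.5 and 16.8 CPM per kb, mt-Atp6 and mt-Atp8 of the ATP synthase at 11.9 and 10.3 CPM per kb, and mt-Nd3 and mt-Nd4l of complex I at 6.14 and 5.72 CPM per kb. Their median was 11.1 CPM per kb, against 3260 CPM per kb for the 7 other mRNAs, and no gene of either set entered the range of the other. mt-Nd4l had the lowest mean of the mRNAs, with a range of 3.14 to 8.66 CPM per kb that overlapped the 4.26 to 7.69 CPM per kb of mt-Nd3.

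These 6 genes lie side by side on chrM, and the reference carries a copy of the same stretch on chromosome 1. There, at GRCm38 chr1:24611535-24616197 (4663 bases), 7 annotated pseudogenes repeat the end of mt-Co1, then mt-Co2, mt-Atp6, mt-Co3, mt-Nd3, mt-Nd4l and the start of mt-Nd4, on the minus strand. Alignment of the reference transcripts gave 100% identity over all but a few end bases of mt-Co2 (Gm28661, 681 bases), mt-Atp6 (Gm10925, 678 bases), mt-Co3 (Gm28437, 783 bases) and mt-Nd4l (Gm10222, 294 bases). The first 876 of 1378 bases of mt-Nd4 matched Gm28439 in full, and the last 483 of 1545 bases of mt-Co1 matched Gm29216 with 1 mismatch. mt-Nd3 and Gm28438 also differ by a single base in 345. For mt-Atp8 only its 43 bases shared with mt-Atp6 were found in an annotated copy, and the sequence between Gm10925 and Gm28661 was not used here. A stretch of 60 bases that holds the one difference of mt-Nd3 (chrM:9459-9518, plus) from its copy (chr1:24613060-24613119, minus) shows how alike they are, with the differing base in capitals.

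mt-Nd3 window: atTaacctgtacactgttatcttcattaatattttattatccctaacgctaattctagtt

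Gm28438 window: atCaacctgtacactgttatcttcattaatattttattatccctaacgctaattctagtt

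Older copies elsewhere in the nucleus are less alike. mt-Cytb matched the processed pseudogene Gm11410 on chromosome 4 at 92.9% identity. In the 60 bases shown next (chrM:14687-14746 and chr4:80004531-80004590, both plus) there are 4 differences, in capitals. This copy, and Gm10222 above, were named after their values had been seen.

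mt-Cytb window: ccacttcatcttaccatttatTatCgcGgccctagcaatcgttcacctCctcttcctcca

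Gm11410 window: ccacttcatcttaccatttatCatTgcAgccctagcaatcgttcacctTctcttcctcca

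A read from a stretch that is the same at both places has no unique origin, and the sources used here do not say how such reads were counted. The counts of the block are therefore uncertain, as are those of mt-Nd4 and mt-Co1 over their copied parts. The 7 pseudogenes of chromosome 1 together had 1090 to 2446 counts per library. Gm11410 had 3 to 14. Among the 7, Gm10222, identical to mt-Nd4l over 294 bases, had 9 to 49. On chromosome 2, Gm13340 is 97.6% identical to mt-Co1 over its whole length and had 641 to 1882 counts, Gm13341 is 95.9% identical to mt-Co2 and had 201 to 412 counts, and Gm13339 is 96.7% identical to 510 bases of mt-Nd2 and had 64 to 243 counts. Gm4076 on chromosome 13, 95.2% identical to part of mt-Nd5, had 10 to 39 counts.

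The counts of mt-Co2 and its copy can be set side by side. mt-Co2 had 348, 364 and 429 counts in DM, 233, 269 and 417 in APP-TKI and 411, 404 and 314 in WT libraries of batch 1, where Gm28661 had 257, 273 and 295, then 214, 264 and 290, then 339, 311 and 234. In batch 2 mt-Co2 had 1254, 930 and 1117 counts in ApoE4 and 542, 1135 and 1083 in WT libraries, beside 629, 486 and 535, then 324, 536 and 584 for Gm28661. In each of the 5 groups both rows were lowest in the same library. WT library 1 of batch 2, with 542 counts of mt-Co2, stood apart from the other 5 libraries of its batch.

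Mitochondrial RNA took a similar part of the library in every group. The 37 genes together made up 4.57%, 4.63% and 4.85% of counts in DM, 4.31%, 4.65% and 4.89% in APP-TKI and 4.31%, 4.83% and 5.13% in WT libraries of batch 1. In batch 2 their share was 4.89%, 4.57% and 4.36% in ApoE4 and 4.66%, 4.50% and 4.89% in WT libraries. Groups overlapped in both batches. Counting error is small beside this spread, with a 95% Wilson interval of at most 0.00734 percentage points to either side. With 3 libraries against 3, an exact permutation test cannot go below p = 0.10, so that shares are given as values only.

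By class, the 13 mRNAs carried 3.87% ± 0.104 of counts in DM, 3.86% ± 0.215 in APP-TKI and 3.95% ± 0.347 in WT libraries of batch 1 (SD, n = 3 each). They carried 3.89% ± 0.215 in ApoE4 and 3.97% ± 0.173 in WT libraries of batch 2. The 2 rRNAs carried 0.807% ± 0.0426, 0.754% ± 0.0779 and 0.803% ± 0.0682 in DM, APP-TKI and WT libraries of batch 1, and 0.710% ± 0.0523 and 0.707% ± 0.0250 in ApoE4 and WT libraries of batch 2. Neither class separated the groups of a batch.

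The tRNA rows did separate in batch 1, at a far lower level. Their summed share was 0.00300%, 0.00336% and 0.00337% in DM, 0.00249%, 0.00284% and 0.00321% in APP-TKI and 0.00355%, 0.00418% and 0.00384% in WT libraries. All 6 libraries with mutant App lay below all 3 WT libraries. In batch 2 the share was 0.00232%, 0.00233% and 0.00217% in ApoE4 and 0.00224%, 0.00212% and 0.00251% in WT libraries, and the groups overlapped.

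The 8 minus-strand tRNAs summed to 0.00223% to 0.00251% in DM and 0.00184% to 0.00226% in APP-TKI, against 0.00266% to 0.00314% in WT libraries of batch 1. The 14 tRNAs of the plus strand overlapped, at 0.00077% to 0.000944% in DM and 0.000646% to 0.000953% in APP-TKI, against 0.000889% to 0.00104% in WT libraries. Much of the separation rested on mt-Tp, a minus-strand tRNA described below. Without it, a sum added after these values had been seen, the 21 other tRNAs had 0.00189% to 0.00219% in DM and 0.00158% to 0.00198% in APP-TKI, against 0.00196% to 0.00246% in WT libraries, and both mutant groups overlapped WT. The 7 other minus-strand tRNAs then overlapped in DM (0.00111% to 0.00134%) and WT libraries (0.00107% to 0.00142%), with APP-TKI lower at 0.000937% to 0.00102%.

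**Figure D2:**
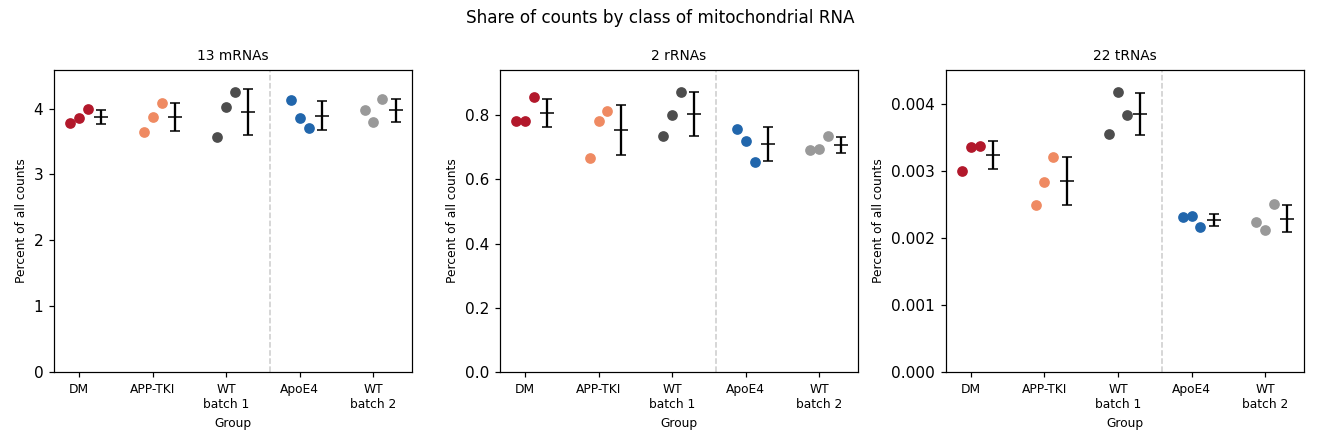
Percent of all counts in the 13 mRNAs, 2 rRNAs and 22 tRNAs of the mitochondrial genome, per library (points) with mean and SD (black) for each group, and a dashed line between the batches. Groups overlap for mRNAs (3.57% to 4.25% over all libraries) and rRNAs (0.654% to 0.872%), while for tRNAs the DM (0.00300% to 0.00337%) and APP-TKI (0.00249% to 0.00321%) libraries lie under the WT libraries of batch 1 (0.00355% to 0.00418%).

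Taken singly, the rRNAs also overlapped between groups. mt-Rnr1 had 3120, 3120 and 3420 CPM in DM, 2700, 3120 and 3260 CPM in APP-TKI and 2990, 3230 and 3610 CPM in WT libraries of batch 1, and 3150, 2990 and 2770 CPM in ApoE4 against 2850, 2930 and 3020 CPM in WT libraries of batch 2. mt-Rnr2 had 4710, 4700 and 5150 CPM in DM, 3960, 4700 and 4880 CPM in APP-TKI and 4370, 4800 and 5110 CPM in WT libraries of batch 1, and 4420, 4210 and 3770 CPM in ApoE4 against 4060, 4020 and 4340 CPM in WT libraries of batch 2. All groups of a batch overlapped for both genes, with log2 differences of -0.12 to 0.10 in the 4 comparisons. APP-TKI library 1 was the lowest of batch 1 for both rRNAs.

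mt-Co1, the most abundant mRNA, had 16400, 17000 and 17800 CPM in DM, 16300, 17500 and 17800 CPM in APP-TKI and 15700, 17500 and 18900 CPM in WT libraries of batch 1. In batch 2 it had 17200, 16300 and 15200 CPM in ApoE4 and 16900, 16400 and 17300 CPM in WT libraries. WT libraries of batch 1 enclosed both mutant groups, and the log2 differences were -0.03 for DM and -0.01 for APP-TKI against WT (SE 0.08 each). The 6 abundant plus-strand mRNAs (mt-Nd1, mt-Nd2, mt-Co1, mt-Nd4, mt-Nd5 and mt-Cytb) differed by -0.10 to 0.07 on the log2 scale in all 4 comparisons.

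No mitochondrial gene passed the main test in any comparison. That test is not the one of the study, which used edgeR's robust likelihood ratio test. Run here, the latter called 1 of 21 in DM against WT mice (mt-Tp, background 0.841%). In APP-TKI against WT mice it called 2 of 21 (mt-Tp and mt-Nd6, background 0.309%), as given below. Of the 37 genes, 21 were tested (13 mRNAs, 2 rRNAs and 6 tRNAs), by edgeR's quasi-likelihood test at an adjusted p under 0.1, with Benjamini-Hochberg adjustment over all 16171 tested genes. In DM against WT mice 0 of 21 were called (background 0.0124% of tested genes), in APP-TKI against WT mice 0 of 21 (background 0.00618%), and in DM against APP-TKI, ApoE4 against WT and the difference of the APOE4 effects 0 of 21 each (background 0% in each). At an unadjusted p under 0.05 the counts were 2 of 21 (mt-Tp and mt-Tt, lower in DM), where the background was 4.55%, then 3 of 21 (mt-Tp, mt-Nd6 and mt-Tq, lower in APP-TKI) at 3.56% and 1 of 21 (mt-Atp6, higher in DM than in APP-TKI) at 3.78%. They were 0 of 21 in ApoE4 against WT mice (5.99%) and in the difference of differences (6.85%). In the last 3 comparisons DESeq2 and the robust likelihood ratio test also called 0 of 21. Their backgrounds were 0.111% and 0.328% in DM against APP-TKI, 0.297% and 0.773% in ApoE4 against WT and 0.161% and 0.748% in the difference of the APOE4 effects.

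The median log2 difference over the 21 genes was -0.05 in DM against WT, where the median of all tested genes was 0.01, and 16 of 21 were lower in DM. In APP-TKI against WT it was -0.24 beside 0.01, with 19 of 21 lower. Both comparisons use the same 3 WT libraries. By set, the 6 abundant plus-strand mRNAs had a median of -0.02 in APP-TKI against WT, and the 2 rRNAs -0.10. The 6 mRNAs of the copied block, whose counts are uncertain, had -0.39. The 5 tested minus-strand genes had -0.36 and the 2 tested plus-strand tRNAs -0.22. In DM against APP-TKI the median over the 21 genes was 0.16 beside 0.00, with 17 of 21 higher in DM. In ApoE4 against WT it was 0.00 beside -0.01, with 12 of 21 higher in ApoE4. Of all tested genes, 45.1% were lower in DM against WT and 44.5% in APP-TKI against WT. The share was 49.6% in DM against APP-TKI and 54.1% in ApoE4 against WT.

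**Figure D3:**
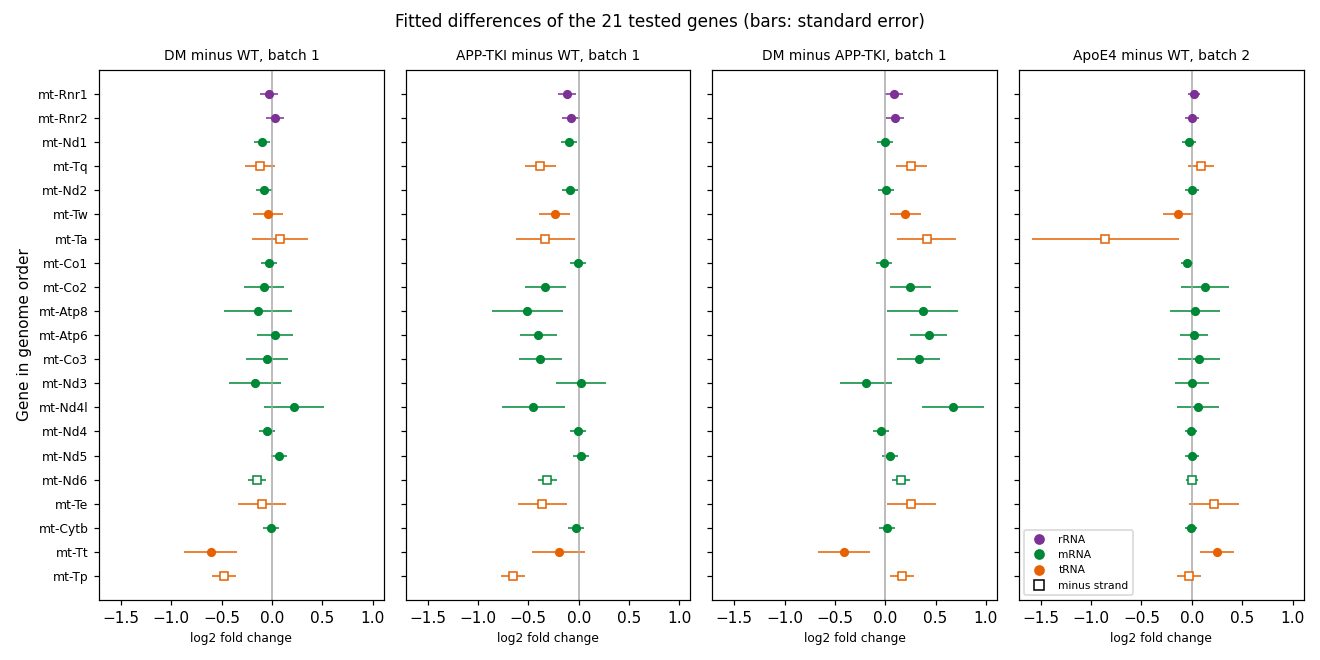
Log2 fold change with its standard error (bars) of the 21 tested mitochondrial genes in 4 comparisons, in genome order, coloured by RNA class, with open squares for minus-strand genes. mt-Tp stands lowest in APP-TKI against WT at -0.65, the 6 abundant plus-strand mRNAs stay within -0.10 to 0.07 in each panel, and mt-Ta in batch 2, with 1 to 10 counts a library, has the widest bar.

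mt-Tp, the tRNA gene nearest to the control region on the minus strand, had the smallest p among mitochondrial genes in DM and in APP-TKI against WT mice. It had 11.1, 11.7 and 13.2 CPM in DM, 9.05, 10.6 and 12.3 CPM in APP-TKI and 15.9, 17.2 and 17.0 CPM in WT libraries of batch 1. Every mutant library lay below every WT library of that batch, on 311 to 626 counts a library. The log2 difference was -0.48 (SE 0.12) in DM against WT, with an adjusted p of 0.482 by the quasi-likelihood test of edgeR. It was -0.65 (SE 0.12) in APP-TKI against WT, with an adjusted p of 0.324 by the same test.

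Those differences changed side of the threshold with the test. For DM against WT the adjusted p for mt-Tp was 0.0751 with DESeq2, which called 0.309% of tested genes, and 0.02 with edgeR's robust likelihood ratio test, which called 0.841%. For APP-TKI against WT it was 0.00438 with DESeq2 (0.155% of genes called) and 0.000542 with the likelihood ratio test of edgeR (0.309% called). Over all settings tried, the adjusted p ran between 0.0109 and 1.0 for DM and between 7.41e-05 and 1.0 for APP-TKI against WT.

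DM and APP-TKI mice did not separate in mt-Tp (log2 difference 0.17, SE 0.12, edgeR adjusted p = 0.987). In batch 2 mt-Tp had 8.92, 8.22 and 7.57 CPM in ApoE4 and 9.12, 7.52 and 8.65 CPM in WT libraries. These groups overlapped (log2 difference -0.03, SE 0.12, edgeR adjusted p = 0.957), and both lay below the 3 groups of batch 1 except for the overlap of APP-TKI library 1 at 9.05 CPM with WT library 1 of batch 2. The APOE4 effect with App mutations minus that without was 0.20 (SE 0.17, edgeR adjusted p = 0.811).

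The libraries of batch 1 also differ in their share of nuclear long noncoding and antisense counts. Among the 5 with 2.16% to 2.32%, mt-Tp was at 11.7 and 13.2 CPM in DM libraries 2 and 3 and at 12.3 CPM in APP-TKI library 3, against 17.2 and 17.0 CPM in WT libraries 2 and 3. The endothelial markers were higher in DM than in APP-TKI and WT libraries, and the ependymal markers (12.9 to 18.2 CPM in DM, 4.19 to 13.6 CPM in APP-TKI, 5.44 to 7.45 CPM in WT) were higher in DM than in WT libraries. The part of the noncoding share and of these markers in the mt-Tp result was not tested.

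mt-Nd6, a complex I subunit and the other well-counted gene of the minus strand, had 205, 228 and 237 CPM in DM, 183, 188 and 227 CPM in APP-TKI and 238, 258 and 244 CPM in WT libraries of batch 1. Both mutant groups lay below WT, DM library 3 by the narrow margin of 237 against 238 CPM. The log2 difference was -0.15 (SE 0.09) for DM, or -0.08 without DM library 1, and -0.31 (SE 0.09) for APP-TKI against WT, with edgeR adjusted p of 1.0 for both. In APP-TKI the robust likelihood ratio test of edgeR gave an adjusted p of 0.0604, within a range of 0.0446 to 1.0 over the settings tried. The log2 difference between DM and APP-TKI was 0.16 (SE 0.09, edgeR adjusted p = 0.987), and these groups overlapped.

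In batch 2 mt-Nd6 had 133, 116 and 120 CPM in ApoE4 and 120, 119 and 130 CPM in WT libraries, a log2 difference of 0.00 (SE 0.06). These 6 libraries all lay below the 9 of batch 1.

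mt-Tq had 7.49, 8.57 and 6.24 CPM in DM, 5.41, 6.26 and 6.91 CPM in APP-TKI and 7.34, 9.28 and 7.58 CPM in WT libraries of batch 1. APP-TKI lay below WT without overlap (log2 difference -0.38, SE 0.15, edgeR adjusted p = 1.0), and DM overlapped both. In batch 2 it had 4.82, 4.80 and 4.09 CPM in ApoE4 and 3.92, 4.38 and 4.61 CPM in WT libraries.

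mt-Tt lies on the plus strand and behaved otherwise. It had 1.41, 1.34 and 1.55 CPM in DM, 1.22, 1.81 and 2.67 CPM in APP-TKI and 2.37, 2.14 and 2.04 CPM in WT libraries of batch 1. DM lay below WT (log2 difference -0.61, SE 0.26, edgeR adjusted p = 1.0), on 49 to 81 counts a library, while APP-TKI spanned both groups. With 2.13, 2.63 and 2.50 CPM in ApoE4 and 1.68, 2.06 and 2.36 CPM in WT libraries of batch 2 it had the smallest p among mitochondrial genes in that comparison (log2 difference 0.25, SE 0.17, edgeR adjusted p = 0.771). It also led the difference of the APOE4 effects, at -0.66 (SE 0.33, edgeR adjusted p = 0.723). These values came to 0.13 without WT library 1 of batch 2 and to -0.33 without APP-TKI library 3.

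Without overlap, 3 of 21 genes were lower in DM than in WT libraries (mt-Tp, mt-Tt and mt-Nd6), where 11% of all tested genes did not overlap in either direction. In APP-TKI against WT these were 3 of 21 (mt-Tp, mt-Nd6 and mt-Tq, all lower) beside 8.5%, and in DM against APP-TKI 3 of 21 (mt-Atp6, mt-Nd4l and mt-Ta, all higher) beside 7.96%. None of 21 separated ApoE4 from WT libraries, where 12.1% of all tested genes did. Such counts are close to the background and are no result about the mitochondrial genes as a set.

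**Figure D4:**
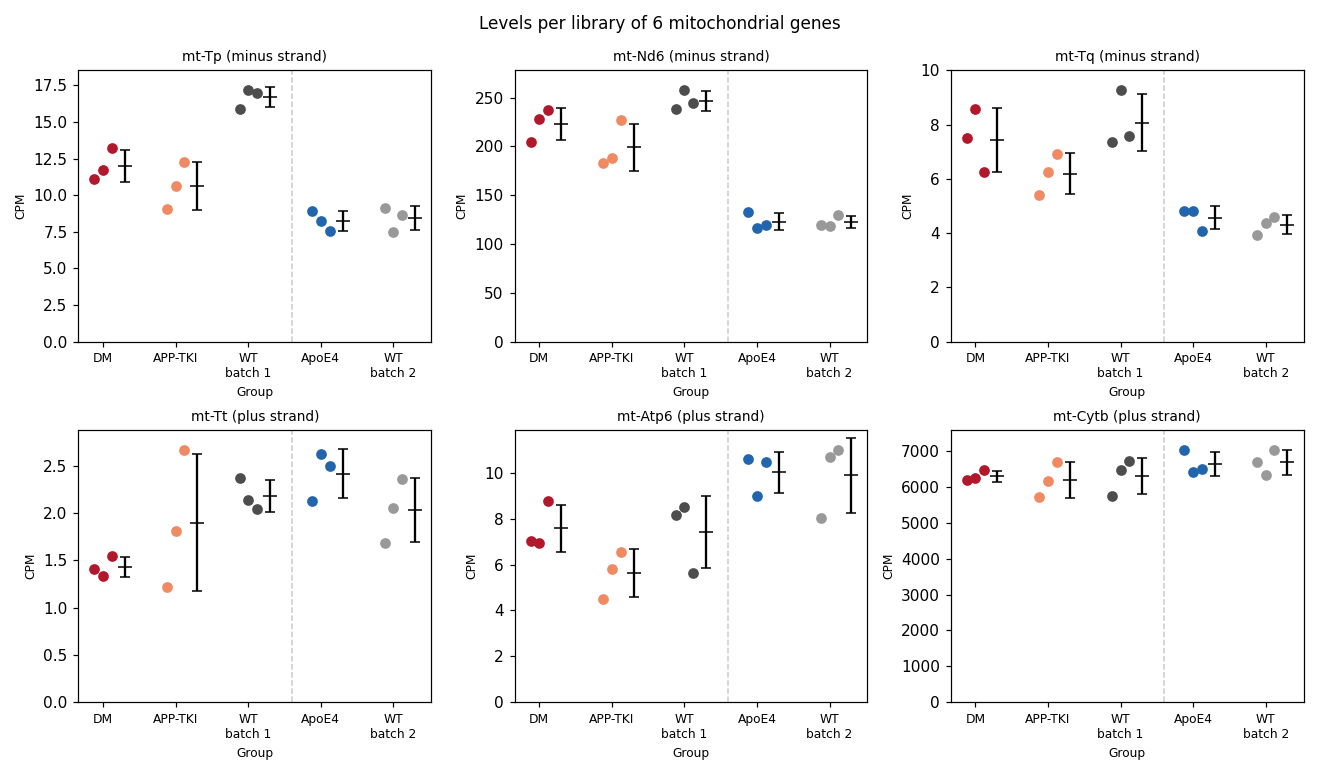
CPM of mt-Tp, mt-Nd6, mt-Tq, mt-Tt, mt-Atp6 and mt-Cytb in each library (points), with mean and SD (black) for each group and a dashed line between the batches, on axes that start at 0. mt-Tp lies at 9.05 to 13.2 CPM in the DM and APP-TKI libraries and at 15.9 to 17.2 CPM in the WT libraries of batch 1, while the groups overlap for mt-Cytb.

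In DM against APP-TKI mice the 3 smallest p among mitochondrial genes went to mt-Atp6, mt-Nd4l and mt-Nd6. mt-Atp6, the proton channel subunit of the ATP synthase, had 7.03, 6.95 and 8.76 CPM in DM and 4.51, 5.82 and 6.55 CPM in APP-TKI libraries (log2 difference 0.43, SE 0.18, edgeR adjusted p = 0.987), with 8.16, 8.52 and 5.63 CPM in WT libraries of batch 1. mt-Nd4l, a small membrane subunit of complex I, had 1.41, 1.67 and 2.57 CPM in DM and 0.931, 1.31 and 1.29 CPM in APP-TKI libraries (log2 difference 0.67, SE 0.31, edgeR adjusted p = 0.987), with 2.19, 1.59 and 1.09 CPM in WT libraries. DM lay above APP-TKI for both, and WT overlapped both groups. Without DM library 3 the difference of mt-Nd4l was 0.38.

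Both genes belong to the block that is copied on chromosome 1. Counts of Gm10925, the copy of mt-Atp6, were 334, 322 and 371 in DM and 222, 275 and 335 in APP-TKI libraries, against 270, 254 and 310 and then 155, 200 and 238 for mt-Atp6. The copy was thus the larger of the pair in these libraries, and its lowest library in APP-TKI was the same. In batch 2 mt-Atp6 had 10.6, 9.01 and 10.5 CPM in ApoE4 and 8.02, 10.7 and 11 CPM in WT libraries, and mt-Nd4l 2.22, 1.55 and 2.06 CPM in ApoE4 and 1.44, 2.14 and 2.02 CPM in WT libraries, with overlap for both. The difference of the APOE4 effects was 0.41 for mt-Atp6 (SE 0.25, edgeR adjusted p = 0.752).

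mt-Ta and mt-Tw sit next to each other on opposite strands. mt-Ta had 0.989, 1.20 and 0.961 CPM in DM, 0.728, 0.873 and 0.771 CPM in APP-TKI and 0.644, 1.25 and 1.09 CPM in WT libraries of batch 1. In batch 2 it had 0.0672, 0.236 and 0.0234 CPM in ApoE4 and 0.160, 0.257 and 0.157 CPM in WT libraries, which is 1 to 10 counts a library, against 22 to 44 counts in batch 1. Its log2 difference of -0.86 in ApoE4 against WT (SE 0.73, edgeR adjusted p = 0.806) and its difference of the APOE4 effects of 1.26 (SE 0.68, edgeR adjusted p = 0.734) rest on these few counts. Without ApoE4 library 2 they were -2.0 and 2.40, and without ApoE4 library 3 they were -0.38 and 0.79.

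mt-Tw had 6.14, 6.95 and 7.80 CPM in DM, 5.06, 6.38 and 6.77 CPM in APP-TKI and 6.44, 8.06 and 6.96 CPM in WT libraries of batch 1. With 5.42, 5.99 and 5.44 CPM in ApoE4 and 5.81, 5.28 and 7.47 CPM in WT libraries of batch 2 (log2 difference -0.14, SE 0.15, edgeR adjusted p = 0.847), its groups overlapped in both batches.

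Ratios between mitochondrial RNAs do not depend on how libraries are scaled. They were added after the values above had been seen. The minus-strand genes had 4.99, 5.49 and 5.43 counts per 1000 plus-strand counts in DM, 4.70, 4.49 and 5.13 in APP-TKI and 6.19, 6.03 and 5.36 in WT libraries of batch 1. APP-TKI lay below WT, and DM overlapped WT. In batch 2 the ratio was 3.06, 2.87 and 3.06 in ApoE4 and 2.89, 2.97 and 2.98 in WT libraries, below every library of batch 1.

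Within the minus strand, mt-Tp had 54.0, 51.4 and 55.4 counts per 1000 mt-Nd6 counts in DM, 49.4, 56.6 and 54.3 in APP-TKI and 66.7, 66.7 and 69.8 in WT libraries of batch 1. In batch 2 there were 66.9, 70.6 and 63.3 in ApoE4 and 76.2, 62.9 and 66.6 in WT libraries. The 6 libraries with mutant App lay below the 3 WT libraries of their batch, and the groups of batch 2 overlapped. mt-Tp was picked for its low level in the mutant groups, so that this ratio is a description of the same difference and no further support for it. Against mt-Cytb of the plus strand the same gene had 1.79 to 2.03 counts per 1000 in DM and 1.58 to 1.84 in APP-TKI, against 2.53 to 2.77 in WT libraries of batch 1, and 1.17 to 1.28 in ApoE4 against 1.18 to 1.36 in WT libraries of batch 2.

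The rRNAs had 20.3 to 21.5 counts per 100 mRNA counts in DM, 18.3 to 20.2 in APP-TKI and 19.9 to 20.6 in WT libraries of batch 1. They had 17.6 to 18.7 in ApoE4 and 17.4 to 18.3 in WT libraries of batch 2. DM lay just above APP-TKI, and the other pairs within a batch overlapped.

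**Figure D5:**
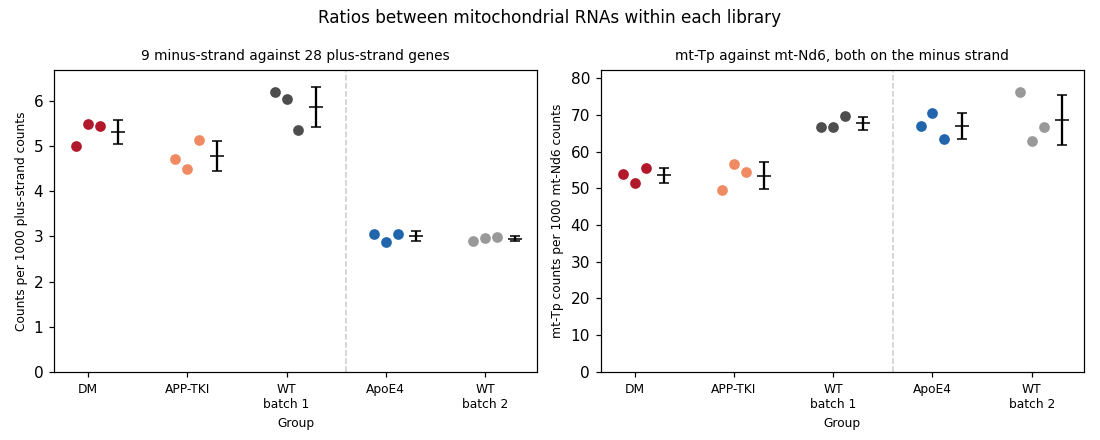
Counts of the 9 minus-strand genes per 1000 counts of the 28 plus-strand genes (left) and mt-Tp counts per 1000 mt-Nd6 counts (right) in each library, with mean and SD (black) for each group and a dashed line between the batches. On the left the 6 libraries of batch 2 (2.87 to 3.06) lie below the 9 of batch 1 (4.49 to 6.19), and on the right the DM and APP-TKI libraries (49.4 to 56.6) lie below the WT libraries of their batch (66.7 to 69.8).

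Minus-strand counts relative to plus-strand counts differed between the WT groups of the batches. These are counts of poly(A)-selected libraries, and strand balance in the tissue was not measured. mt-Nd6 was at 238 to 258 CPM in WT libraries of batch 1 and at 119 to 130 CPM in those of batch 2, and mt-Nd6 counts per 1000 mt-Nd5 counts were 61.9 to 71.1 and 30.3 to 31.0. In the opposite direction, mt-Co2 was at 8.53 to 12.3 CPM in WT libraries of batch 1. It was at 14.4 to 29.2 CPM in those of batch 2. mt-Co2 belongs to the block copied on chromosome 1, and its counts are of uncertain origin. The other mRNAs of the block overlapped between the WT groups, with mt-Co3 at 8.29 to 14.5 CPM and 10.7 to 20.0 CPM. The abundant plus-strand mRNAs overlapped between the WT groups. Batch and any other difference between these groups cannot be told apart, and no test was made between batches.

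The nuclear genes that make, cut and translate mitochondrial RNA were read from 5 lists. Of these, 0 passed the quasi-likelihood test, the robust likelihood ratio test of edgeR or DESeq2 in any of the 4 comparisons within a batch. At an unadjusted p under 0.05 the 18 tested genes of mitochondrial transcription gave 0 in each comparison, as did 19 aminoacyl-tRNA synthetases and 14 translation factors. The 24 genes of RNA processing and stability gave 2 in DM against WT (both lower), 2 in APP-TKI against WT and 2 in DM against APP-TKI (1 higher and 1 lower in each), and 1 in ApoE4 against WT (lower). The 22 genes of rRNA and tRNA modification gave 1 in APP-TKI against WT (higher) and 1 in ApoE4 against WT (lower). Of all tested genes, 4.55% had an unadjusted p under 0.05 in DM against WT and 3.56% in APP-TKI against WT. This background was 3.78% in DM against APP-TKI and 5.99% in ApoE4 against WT. The medians of these lists were -0.06 to 0.04 on the log2 scale.

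Slirp, which with Lrpprc stabilizes mitochondrial mRNAs, had 20.0, 19.8 and 21.4 CPM in DM and 16.6, 16.2 and 18.6 CPM in APP-TKI libraries, with 19.3, 19.2 and 17.9 CPM in WT libraries of batch 1. DM and APP-TKI did not overlap (log2 difference 0.25, SE 0.08, edgeR adjusted p = 0.987). Ptcd1, a pentatricopeptide protein that acts on mitochondrial RNAs, had 23.8, 24.4 and 25.6 CPM in DM and 24.4, 24.5 and 23.5 CPM in APP-TKI, against 26.8, 27.4 and 27.6 CPM in WT libraries. Both mutant groups lay below WT (log2 differences -0.15 and -0.18, SE 0.07 each, edgeR adjusted p = 1.0 for both). Elac2, which cuts the 3′ ends of tRNAs, had 28.7, 27.9 and 27.8 CPM in DM and 31.4, 31.1 and 28.9 CPM in APP-TKI libraries (log2 difference -0.11, SE 0.07, edgeR adjusted p = 0.987). Qrsl1, a subunit of the enzyme that forms mitochondrial glutaminyl-tRNA, had 13.5, 14.4 and 13 CPM in ApoE4 and 16.4, 15.7 and 17.1 CPM in WT libraries of batch 2 (log2 difference -0.27, SE 0.07, edgeR adjusted p = 0.761).

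The nuclear partners of the mitochondrial proteins also gave 0 calls by edgeR's quasi-likelihood test in the 4 comparisons. In DM against APP-TKI mice 35 of 36 nuclear subunits of complex I, 9 of 9 of complex III, 11 of 11 of complex IV and 14 of 14 of complex V were higher in DM, where 49.6% of all tested genes were lower. Their medians were 0.12, 0.11, 0.13 and 0.11 on the log2 scale, beside 0.16 for the 21 mitochondrial genes. Among those 21, which include rRNAs and tRNAs, the 6 abundant plus-strand mRNAs had a median of 0.01. The 6 mRNAs of the copied block had 0.35 and the 5 tested minus-strand genes 0.26. At an unadjusted p under 0.05 there were 12, 3, 3 and 6 of these nuclear subunits, all higher in DM (background 3.78% in either direction). At an adjusted p under 0.1 the robust likelihood ratio test called 1 of complex I and 2 of complex V (background 0.328%), and DESeq2 called 1 of complex V (background 0.111%). Against WT mice of batch 1, 28 of 36, 9 of 9, 11 of 11 and 12 of 14 were higher in DM, with medians of 0.06, 0.06, 0.08 and 0.07, where 45.1% of all tested genes were lower. In APP-TKI against the same WT mice 33 of 36, 8 of 9, 10 of 11 and 12 of 14 were lower, with medians of -0.08, -0.05, -0.05 and -0.10, where 44.5% of all tested genes were lower. In ApoE4 against WT mice 35 of 36, 8 of 9, 11 of 11 and 14 of 14 were lower in ApoE4, where 54.1% of all tested genes were. Their medians were -0.10, -0.08, -0.11 and -0.09, beside 0.00 for the 21 mitochondrial genes, and 5, 1, 1 and 1 had an unadjusted p under 0.05 (background 5.99%). Whether nuclear and mitochondrial subunits differ in their response was not tested.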

How the data were processed

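Poly(A) RNA of whole hippocampus was sequenced in 15 directional paired-end libraries. The deposited values are raw counts per gene, which the authors made with Trimmomatic 0.39, STAR 2.7.1a (mouse genome with human APOE) and HTSeq 0.11.2. The sources used here do not say how multiply aligned reads were treated.

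Of 55471 rows, 55230 matched GENCODE M21 (GRCm38). Genes over 1 CPM in at least 3 of 15 libraries (16171) were tested in R 4.3.3 with edgeR 4.0.16, by the quasi-likelihood test after upper quartile scaling, in a fit of the 9 libraries of batch 1, of the 6 of batch 2 and, for the difference of the APOE4 effects (DM minus APP-TKI against ApoE4 minus WT), of all 15. The Benjamini-Hochberg threshold was 0.1. CPM and shares use the total count of each library, 32754717 to 44630808. Copies were found with BLAST 2.17.0 between reference transcripts. The members, lists and named genes were chosen with earlier results of these data known. Values are given for the rRNAs, the highest and lowest mRNA, mt-Nd6 and the 3 genes of smallest p per comparison. Of up to 3 genes of smallest p per nuclear list and comparison, only Slirp, Ptcd1, Elac2 and Qrsl1 are printed. Others that act on these RNAs, such as Pde12, Fastkd2 and Trmt61b, are left out. Nuclear copies were named from 300 bases at 95% identity.

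The quasi-likelihood test took the place of the study's own test, the robust likelihood ratio test of edgeR, which was run as an alternative. Other alternatives were DESeq2 1.42.0, other scalings and filters, a threshold of 0.05, a fit of all libraries, each library left out, and the replicate number as a block. Same-numbered DM and WT libraries of batch 1 deviated together (correlations 0.446, 0.194 and 0.300), which the labels do not explain. The other pairs of groups had at least 1 correlation below 0.1. On simulated counts with 200 changed genes the steps recovered 58.2%, 89.6% and 97.0% of genes changed 1.5-, 2- and 4-fold between DM and WT libraries, with 12.8% false calls. For the difference of the APOE4 effects they recovered 50.7%, 76.1% and 92.4%, with 10.4% false calls. Simulated libraries shared no differences such as those in noncoding share and cell markers. The simulation checks the steps and does not give the power behind the 0 calls.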

Additional observations from a re-analysis of the deposited data

How the results depend on the processing

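The quasi-likelihood test of edgeR called 0 mitochondrial genes in each comparison, and 0 with any single library left out. In DM against WT mice the robust likelihood ratio test of edgeR, DESeq2 and the test without a filter on low counts called 1 each (mt-Tp). In APP-TKI against WT mice DESeq2 called 1 (mt-Tp), and the robust likelihood ratio test and the test without a filter called 2 each (mt-Tp and mt-Nd6). Without a filter the background rose as well, to 179 and 83 of 34813 genes. With the replicate number as a block, mt-Tp was called in APP-TKI against WT mice (adjusted p = 0.0398 by edgeR). It was the 1 mitochondrial gene among 9 of 16171 genes called there. Same-numbered libraries of these groups had correlations of 0.186, -0.32 and 0.229. In DM against WT mice the correlations were 0.446, 0.194 and 0.3. There the fit with the block called 0 mitochondrial genes, and 11 of 16171 genes in all. The labels do not say whether the numbers pair the libraries. The log2 difference of mt-Tp was -0.56 to -0.42 in DM and -0.77 to -0.54 in APP-TKI against WT mice with single libraries left out. Per mt-Cytb count within each library it was -0.48 and -0.63, and per mt-Nd6 count -0.34 and -0.34, both chosen after seeing the data. The cause of these changes was not tested. Of the named mitochondrial genes mt-Tw changed sign, in ApoE4 against WT mice, at 0.02 without WT library 3 of batch 2 (-0.25 to 0.02 over the libraries left out). The difference in the share of all 37 genes also depended on single libraries, at -0.297 to 0.111 percentage points in DM against WT, -0.359 to 0.0498 in APP-TKI against WT, -0.0913 to 0.197 in DM against APP-TKI and -0.216 to 0.047 in ApoE4 against WT mice. For tRNAs it stayed at -0.000766 to -0.000452 in DM and -0.00119 to -0.000829 in APP-TKI against WT mice. Counts of 1 to 10 a library limit mt-Ta in batch 2. mt-Co2, mt-Co3, mt-Atp6, mt-Nd3 and mt-Nd4l are limited by reads of uncertain origin from their near-identical nuclear copies, whatever the depth. The same holds for part of mt-Nd4 and of mt-Co1.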
